A study of Mus musculus with 2 samples.

Results

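The interferon-induced transmembrane (IFITM) genes Ifitm1, Ifitm2, Ifitm3 and Ifitm6 were described across the immune cells of mouse tumours. They are 4 of the 24510 genes of the table and were chosen by their molecule counts over cell classes in earlier results of these data, so their levels are given as a description, without a test. The cells came from subcutaneous tumours of B16F10, a transplantable mouse melanoma line, grown in female C57BL/6 mice, sorted for the leukocyte antigen CD45 and taken through 1 single-cell whole transcriptome capture. Tumours grew from Tyr knockout, Oca2 knockout or wildtype B16F10 cells, in 3 mice for each of the 3 tumour genotypes, and each genotype received 1 sample tag, so that a tag pools the cells of its mice. The sources used here do not say which tag went with which genotype. Values are therefore given for tags 8, 9 and 10 side by side, and no genotype was compared with another.

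IFITM proteins are small membrane proteins that restrict the entry of enveloped viruses by acting where viral and cellular membranes fuse. Ifitm3 acts mainly in late endosomes, Ifitm1 is found more at the cell surface, and Ifitm2 is the closest relative of Ifitm3. Type I interferon, released on viral or nucleic acid sensing, acts through transcription factors that bind interferon-stimulated response elements in promoters, while interferon gamma acts mainly at gamma-activated sites. In blood and tissue, myeloid cells such as monocytes and neutrophils are known for abundant Ifitm transcripts, and Ifitm6 is a member of the mouse family.

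On GRCm38 the 4 genes lie within 63088 bases of chromosome 7, per GENCODE vM21. Ifitm2 (ENSMUSG00000060591.9, chr7:140954837-140955987) is on the minus strand and has 2 exons. Ifitm1 (ENSMUSG00000025491.14, chr7:140967221-140969825) is on the plus strand. Ifitm3 (ENSMUSG00000025492.6, chr7:141009586-141010770) and Ifitm6 (ENSMUSG00000059108.4, chr7:141015699-141017924) are on the minus strand. The promoters are shown because the 4 genes differed in how their levels went with those of type I interferon response genes, described further on. Each holds 250 bases before and 50 from the start of the RefSeq gene (GRCm38.p6), 5′ to 3′ on the strand of the gene, and capitals mark matches to the core of the interferon-stimulated response element, searched on both strands as GAAA, any 2 bases and GAAA again.
Ifitm3 promoter, chr7:141010695-141010994, minus strand: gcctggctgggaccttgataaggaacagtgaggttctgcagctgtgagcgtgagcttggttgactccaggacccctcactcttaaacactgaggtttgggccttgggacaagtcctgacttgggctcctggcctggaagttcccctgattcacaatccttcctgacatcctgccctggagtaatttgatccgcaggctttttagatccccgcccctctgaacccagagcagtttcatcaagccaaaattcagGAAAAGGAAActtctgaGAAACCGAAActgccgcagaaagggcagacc
Ifitm2 promoter, chr7:140955912-140956211, minus strand: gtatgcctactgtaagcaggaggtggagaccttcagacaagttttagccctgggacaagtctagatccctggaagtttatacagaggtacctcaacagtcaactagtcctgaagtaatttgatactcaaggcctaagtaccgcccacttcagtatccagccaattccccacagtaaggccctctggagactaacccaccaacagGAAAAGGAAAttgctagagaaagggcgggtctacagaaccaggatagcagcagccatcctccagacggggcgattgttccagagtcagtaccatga
Ifitm1 promoter, chr7:140967826-140968125, plus strand: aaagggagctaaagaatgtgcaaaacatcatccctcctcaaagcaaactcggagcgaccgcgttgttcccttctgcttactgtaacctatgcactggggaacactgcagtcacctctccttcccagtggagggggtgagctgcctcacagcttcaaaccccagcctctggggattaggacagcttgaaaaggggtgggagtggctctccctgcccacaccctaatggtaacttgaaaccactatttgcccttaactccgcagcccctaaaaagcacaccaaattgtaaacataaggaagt
Ifitm6 promoter, chr7:141016843-141017142, minus strand: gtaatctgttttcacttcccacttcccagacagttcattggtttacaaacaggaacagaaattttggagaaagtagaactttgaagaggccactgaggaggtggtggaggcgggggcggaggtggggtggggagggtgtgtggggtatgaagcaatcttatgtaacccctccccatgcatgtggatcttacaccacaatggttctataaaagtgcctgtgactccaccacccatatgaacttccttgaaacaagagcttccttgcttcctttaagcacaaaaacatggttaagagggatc

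With the first base of the gene counted as 0, the matches in Ifitm3 begin at 2 and 19, and the match in Ifitm2 begins at -46. The core was found in 1126 of 32817 promoters of the same length (3.43%), and its letters are not in the windows of Ifitm1 and Ifitm6. The letters of a gamma-activated site, TTCNNNGAA, which reads the same on both strands, were found in Ifitm3 from 13, between the response element matches and partly over the one at 19, and in Ifitm6 from -10, and in 8.29% of all promoters. A match is a description of letters only, and its part in the levels was not tested. The RefSeq starts of all 4 genes lie inside their GENCODE genes. The windows of Ifitm2 and Ifitm3 still cover the GENCODE start. Those of Ifitm1 and Ifitm6 lie wholly inside the gene, so the sequence at their GENCODE start was not searched. Annotated transcripts of Ifitm2 and Ifitm3 share a run of 69 identical bases and those of Ifitm1 and Ifitm3 one of 64, so reads from these stretches cannot be told apart, while Ifitm6 shares at most 25 bases with another of the 4. Gm45717 overlaps Ifitm2 on the same strand, which leaves the split of reads between them uncertain.

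After filters, 10491 cells with a single tag remained, 3336, 3486 and 3669 for tags 8, 9 and 10, with total molecule counts of 20020951, 20814133 and 22908828 and medians of 3224.5, 3670 and 3565 molecules per cell. Classes were gated on raw counts of marker genes, none of them an Ifitm gene. The gates held 4452 myeloid and 2084 lymphoid cells, while 1998 cells passed the gates of more than 1 lineage (19.0%) and 1957 passed none (18.7%). Of 20 classes, 17 had at least 20 cells in every tag. Check markers that were not used for gating were highest in their own class for 3 of 4 genes in monocytes, 4 of 4 in neutrophils, 4 of 4 in CCR7 dendritic cells, 3 of 3 in eosinophils, 2 of 4 in cDC2 and 2 of 4 in cDC1. In the macrophages with C1q transcripts but no Folr2 or Cd163, none of the 4 macrophage check markers was highest, at ranks 2 to 4.

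Together the 4 genes gave 110658 molecules in the kept cells. Ifitm3 gave 56.1% of them, Ifitm2 27.5%, Ifitm1 12.9% and Ifitm6 3.42%. Levels below are molecules of a gene per 1000000 molecules of the class in a tag (CPM), with exact 95% Poisson intervals in the plots, and intervals cover counting error only. The family as a whole was highest in cDC2, the type 2 conventional dendritic cells gated by Cd209a, with 7430, 5917 and 5523 CPM in tags 8, 9 and 10. Neutrophils followed with 3581, 3847 and 3470 CPM, and monocytes with 3174, 3352 and 3255 CPM. At the other end, gamma-delta T cells held 59.3, 87.7 and 110.6 CPM.

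**Figure D1:**
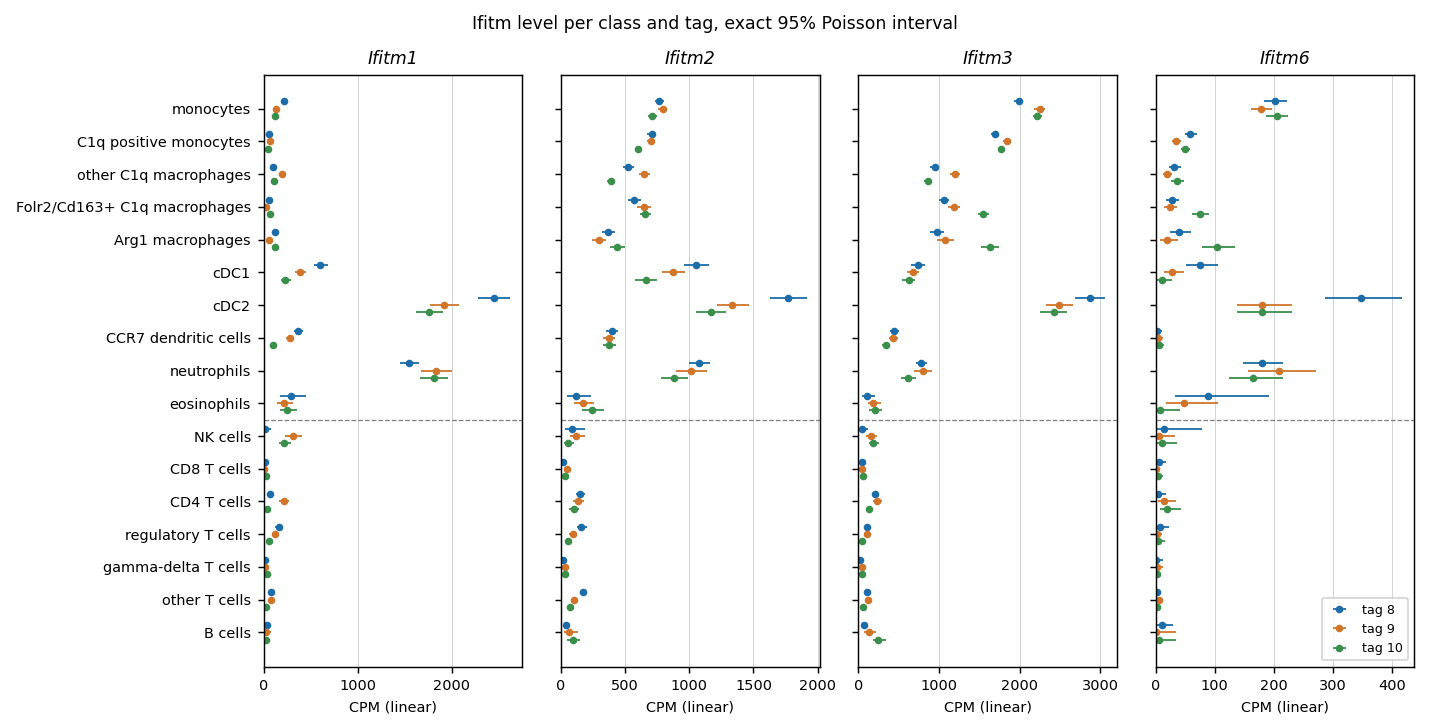
Level of each of the 4 Ifitm genes (CPM, linear axis, a separate scale for each gene) in the 17 classes with at least 20 cells in every tag, 1 point per tag with its exact 95% Poisson interval, myeloid classes above the dashed line and lymphoid classes below it. Ifitm1 stands high in cDC2 and neutrophils, Ifitm3 in cDC2 and both monocyte classes, and Ifitm6 in monocytes, cDC2 and neutrophils.

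Ifitm3, the member best known for restricting influenza virus, was found throughout the phagocytes. It reached 2867, 2486 and 2419 CPM in cDC2 of tags 8, 9 and 10. Monocytes, gated by Ly6c2 or Chil3 with little C1q, held 1986, 2246 and 2220.1 CPM, and cells that passed both the monocyte and the C1q gate held 1693, 1844 and 1773 CPM. The values of these 3 classes did not overlap. The 3 macrophage classes came next and overlapped, with medians over tags of 1184 CPM in Folr2 or Cd163 positive cells, 1076 CPM in Arg1 macrophages and 945 CPM in the other C1q macrophages. Neutrophils at 782, 796 and 618 CPM and cDC1, the cross-presenting Xcr1 or Clec9a positive dendritic cells, at 737, 672 and 623 CPM overlapped each other and lay below every macrophage value. CCR7 dendritic cells at 447, 433 and 344 CPM followed, and the highest lymphoid or eosinophil value was 249 CPM, in B cells of tag 10, where 1 cell gave 35 of 41 molecules. The next were 232 and 214 CPM, in CD4 T cells of tags 9 and 8.

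Ifitm2 had the same leading class and a flatter course. It stood at 1772, 1333 and 1168 CPM in cDC2, at 1075, 1012 and 879 CPM in neutrophils and at 1050.3, 876 and 661 CPM in cDC1. Monocytes held 766, 792 and 711 CPM, and the monocytes with C1q 707, 701 and 604 CPM. The cDC2 values lay above all others, whereas neutrophils, cDC1 and monocytes formed a run of overlapping neighbours. Among lymphoid classes and eosinophils the highest value was 239 CPM, in eosinophils of tag 10.

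Ifitm1 was concentrated in a pair of classes. It reached 2445, 1919 and 1756 CPM in cDC2 and 1545, 1831 and 1808 CPM in neutrophils, and these overlapped. The next class, cDC1, held 603, 390.4 and 232 CPM, below every value of that pair. Monocytes held 220.2, 135 and 119 CPM, the monocytes with C1q 53.6, 69.2 and 47.4 CPM, and Folr2 or Cd163 positive macrophages 52.9, 27.3 and 67.5 CPM. Some lymphoid classes overlapped these values. NK cells held 14.2, 310.2 and 220.0 CPM. CD4 T cells held 73.6, 215 and 36.2 CPM, and regulatory T cells 163, 122 and 54.1 CPM. The lymphoid values came from few cells, with a molecule in 3.23% of NK cells, 9.43% of CD4 T cells and 8.06% of regulatory T cells. From cDC1 down, neighbours in the order overlapped at every step but 1, between the other C1q macrophages and the T cells that no other T cell gate held. Of the 14302 Ifitm1 molecules in kept cells, cDC2 gave 2047 and neutrophils 2008. Cells that passed no gate gave 2604, at 386, 413 and 275 CPM. Cells that passed more than 1 lineage gave 3334, at 293, 177 and 169 CPM.

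Ifitm1 was spread unevenly over the cells of some classes. In cDC2 80.6% of cells had at least 1 molecule (median 6 per cell), and in neutrophils 78.3% (median 2), although neutrophils were shallow at a median of 2082.5 molecules in all, against 6033 in cDC2. In cDC1, with a median of 11529 molecules in all, 41.1% of cells had one, the median was 0, and 1 cell of 107 gave 114 of the 525 molecules (21.7%). In monocytes 24.9% of cells had one, and the cell with most held 110 of 1065 (10.3%).

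Ifitm6 was the least abundant of the 4 over all kept cells. It held 202, 179 and 204 CPM in monocytes, 347, 179 and 179 CPM in cDC2 and 179, 208 and 165 CPM in neutrophils. These 3 classes overlapped and stood apart from all other classes. The monocytes with C1q held 58.7, 34.8 and 50.3 CPM, and macrophage classes between 18.4 and 104 CPM, with Arg1 macrophages of tag 10 the highest. CCR7 dendritic cells gave 8 molecules in all from 258 cells, at 2.99, 4.56 and 5.11 CPM, and no lymphoid class exceeded 19.8 CPM.

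Shares of cells with a molecule depend on depth, so each cell was thinned to 1000 molecules and shallower cells were left out. Ifitm3 was then found in 90.3% of 155 cDC2, 80.4% of 1146 monocytes, 59.5% of 880 C1q macrophages, 42.4% of 472 neutrophils and 28.8% of 257 CCR7 dendritic cells. The share was 6.36% in B cells, a class with little Ifitm3, and 7.16% in T cells, while the unthinned shares were 91.4% in monocytes at a median depth of 5064 molecules and 12.6% in B cells at 2197. Ifitm1 was found in 61.4% of thinned neutrophils, 55.5% of cDC2 and 10.4% of monocytes, against 3.17% of lymphoid cells. For Ifitm6 the shares were 21.9% in cDC2, 18.2% in monocytes, 13.8% in neutrophils and 3.30% in C1q macrophages. The Ifitm6 share was 0.634% in lymphoid cells and 0.778% in CCR7 dendritic cells, 2 cells of 257, so the CCR7 share lay at the level of the lymphoid background.

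The mixture of members differed between classes. In monocytes Ifitm3 gave 66.1% of the molecules of the 4 genes (62.6% to 68.2% over tags) and Ifitm1 4.81% (3.67% to 6.94%). In neutrophils the order was turned round, with Ifitm1 at 46.5% (43.1% to 52.1%), Ifitm2 at 27.9% and Ifitm3 at 20.5% (17.8% to 21.8%). In cDC2 Ifitm3 at 41.2% and Ifitm1 at 32.4% led together, whereas in cDC1 Ifitm2 was first at 43.4% (42.6% to 44.5% over tags). Ifitm6 gave 5.99% in monocytes and 5.02% in neutrophils but 2.03% in C1q macrophages and 0.397% in CCR7 dendritic cells.

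**Figure D2:**
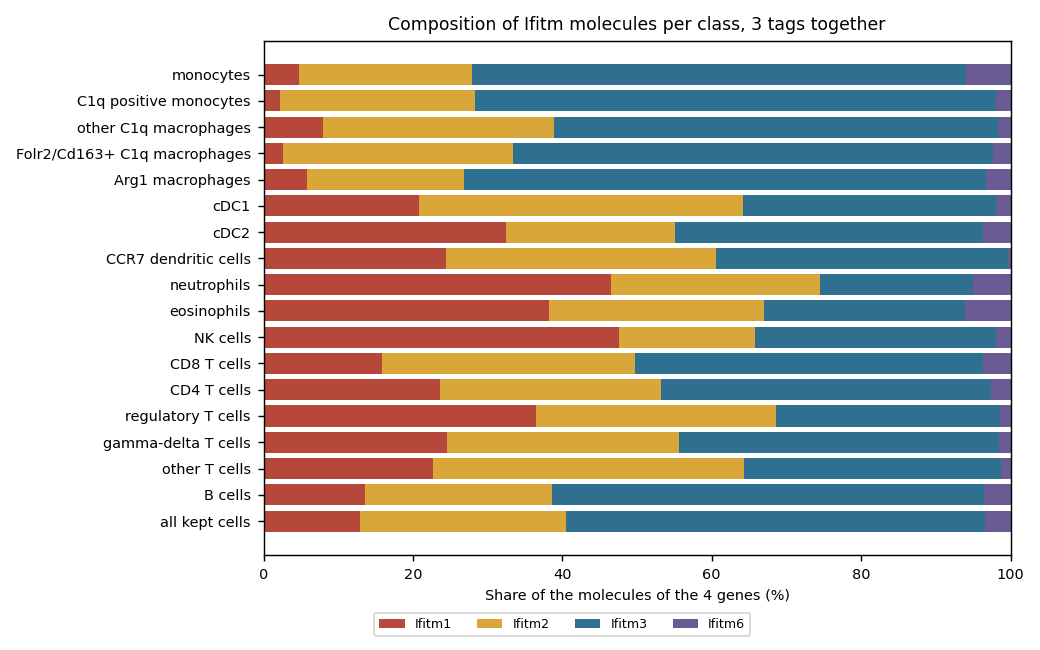
Share of each gene in the molecules of the 4 Ifitm genes (percent, stacked to 100) per class, the 3 tags together, with all kept cells as the lowest bar. Ifitm3 takes between 59.4% and 69.9% in the monocyte and macrophage classes, Ifitm1 46.5% in neutrophils and Ifitm2 43.4% in cDC1.

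Classes were then compared tag by tag through log2 ratios of CPM, and a gene was counted as higher or lower where its ratio passed 2-fold in the same direction in all 3 tags. Monocytes are the blood-derived precursors of many tumour macrophages, and between monocytes and C1q macrophages 1 of the 4 members passed, Ifitm6. It held 202, 179 and 204 CPM in monocytes, against 29.7, 20.4 and 56.1 CPM in C1q macrophages, with log2 ratios of 2.76, 3.13 and 1.86. Among all 10443 genes compared, 1.13% were higher in monocytes by this rule and 1.46% lower. Ifitm3, with 1986, 2246 and 2220.1 CPM in monocytes and 995, 1193 and 1223 CPM in C1q macrophages, stayed just under the limit with ratios of 0.998, 0.913 and 0.860. The median log2 ratios of Ifitm2 and Ifitm1 were 0.42 and 0.46, and that of all genes -0.04.

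Cells that passed both gates were set against monocytes in a contrast added after the levels were seen. Ifitm6 was lower in them, at log2 ratios of -1.78, -2.36 and -2.02, where 0.729% of 10432 genes were lower by the same rule. Their Ifitm3 was close to that of monocytes, with a median log2 ratio of -0.28 that ranged from -0.32 to -0.23, and Ifitm2 differed as little (-0.18). Ifitm1 was 53.6, 69.2 and 47.4 CPM against 220.2, 135 and 119 CPM in monocytes, with ratios of -2.04, -0.97 and -1.33, so it missed the rule in tag 9 alone. There 1 cell gave 34.1% of the value in the cells that passed both gates. In tag 8, 1 cell gave 23.0% of the monocyte value. The monocyte check markers summed to between 2308 and 3592 CPM in the cells that passed both gates and between 3319 and 4326 CPM in monocytes. The part of these markers in the Ifitm6 difference was not tested. Cells that passed both gates had a median depth of 8739 molecules, against 5064 in monocytes. The part of depth in passing the gates, and that of doublets within a tag, was not tested. Within macrophages, Folr2 or Cd163 positive cells were set against the other C1q macrophages, and none of the 4 members passed, where 1.52% of all 9134 genes did in either direction. The Folr2 or Cd163 positive cells had a median depth of 10920 molecules, against 3977 in the others. The part of depth in this split was not tested. Ifitm3 was 1061, 1184 and 1550 CPM in the Folr2 or Cd163 positive cells and 945, 1199 and 860.3 CPM in the others, higher in 2 of 3 tags. Ifitm1 was lower in 3 of 3 tags, at ratios of -0.99, -2.81 and -0.69, and passed 2-fold in tag 9 alone. Single cells weighed on these values, with 1 cell giving 68.6% of the tag 8 value in the Folr2 or Cd163 positive cells and another 51.0% of the tag 10 value in the others. The cDC2 check markers summed to between 26.96 and 89.3 CPM in the Folr2 or Cd163 positive cells and between 235 and 335 CPM in the others, and their part in the Ifitm1 values was not tested.

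Neutrophils, short-lived granulocytes that leave the blood for inflamed tissue, were set against monocytes. Ifitm1 was higher in neutrophils with log2 ratios of 2.81, 3.76 and 3.92, a median fold of 13.6, where 4.62% of 9460 genes were higher. Ifitm3 was lower with ratios of -1.34, -1.50 and -1.84, where 16.5% of genes were lower, so a call in that direction was common. The median gene stood at -0.73 on this scale. Relative to it Ifitm1 stood at 4.49, Ifitm2 at 1.08, Ifitm6 at 0.56 and Ifitm3 at -0.76. With TMM factors, which move the median gene to -0.28 and the share of higher among the genes called to 48.2%, against 21.9% without them, Ifitm3 had a median ratio of -1.04 and no longer passed. Ifitm2 had a median log2 ratio of 0.35 and Ifitm6 of -0.17, or 0.28 with TMM factors, and neither passed.

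Eosinophils, granulocytes known for defence against helminths, held less of every member than neutrophils, and all 4 passed as lower, where 6.04% of 4583 genes were lower. Ifitm1 was 294, 217 and 254 CPM in eosinophils, against 1545, 1831 and 1808 CPM in neutrophils, a median log2 ratio of -2.83. The median ratios were -2.59 for Ifitm2, -2.11 for Ifitm3 and -2.11 for Ifitm6, while the median of all genes was 0.77, or -0.14 with TMM factors, under which 25.6% of the genes called were higher in eosinophils, against 76.2% without them. These rest on few molecules, with 6, 6 and 1 of Ifitm6 and 7, 23 and 27 of Ifitm3 in eosinophils, and on shallow cells with a median of 1272 molecules, and Ifitm6 did not pass under 5 of 14 alternative settings. The neutrophil gate genes summed to between 6759 and 8855 CPM in eosinophils and between 14694 and 20109 CPM in neutrophils, and their part in the result was not tested.

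**Figure D3:**
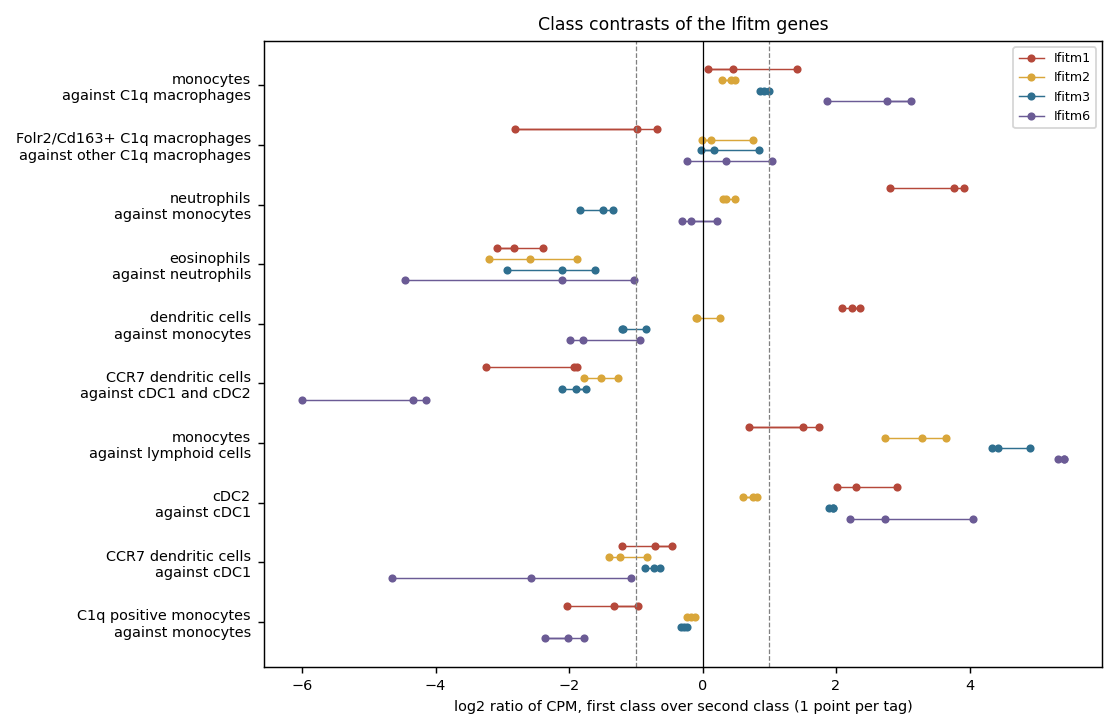
Log2 ratio of CPM of the 4 Ifitm genes in 10 class contrasts, first named class over second, 1 point per tag joined by a line, with dashed lines at 2-fold. Ifitm1 lies to the right in neutrophils against monocytes and in cDC2 against cDC1, Ifitm6 to the right in monocytes against C1q macrophages, and all 4 genes lie to the left in CCR7 dendritic cells against cDC1 and cDC2.

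Dendritic cells take up antigen and present it to T cells, and cDC1, cDC2, CCR7 and 11 plasmacytoid dendritic cells entered as a group against monocytes. Ifitm1 was higher in dendritic cells, at 932, 692 and 566 CPM, against 220.2, 135 and 119 CPM in monocytes, with ratios of 2.08, 2.36 and 2.25, where 7.7% of 10341 genes were higher. Ifitm3 had ratios of -0.85, -1.20 and -1.21 and Ifitm6 of -0.94, -1.79 and -1.98, and each missed the rule in tag 8 alone, where 7.23% of genes were lower. Without tag 8, both passed, so that 3 members did in place of 1. The classes in the group differed, as cDC2 against cDC1 shows, a contrast added after the levels were seen.

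In cDC2 3 of the 4 members were higher than in cDC1, where 4.75% of 6605 genes were higher. Ifitm1 had log2 ratios of 2.02, 2.30 and 2.92, Ifitm3 of 1.96, 1.89 and 1.96, and Ifitm6 of 2.21, 2.73 and 4.05, the last on 33, 12 and 4 molecules in cDC1. Ifitm2 was higher in each tag, yet its ratios of 0.75, 0.61 and 0.82 stayed under 2-fold. The monocyte check markers summed to between 2310 and 2413 CPM in cDC2, against 963 to 1082 CPM in cDC1. The neutrophil check markers summed to between 1246 and 1592 CPM in cDC2, against 75.6 to 185 CPM in cDC1, with none of the 4 at 0 in cDC2, while the genes of the neutrophil gate summed to between 20.9 and 129 CPM in cDC2. The part of these markers in the cDC2 levels was not tested.

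CCR7 dendritic cells, which have matured and carry antigen towards lymph nodes, held less of all 4 members than cDC1 and cDC2 together, where 6.95% of 8413 genes were lower. Ifitm1 was 368, 283 and 100.4 CPM in CCR7 dendritic cells, against 1397, 1048 and 955 CPM in cDC1 and cDC2. Ifitm3 was 447, 433 and 344 CPM, against 1656, 1453 and 1476 CPM, with ratios of -1.89, -1.75 and -2.10. Ifitm2 had ratios of -1.78, -1.53 and -1.27. Ifitm6 was nearly absent, with 2, 3 and 3 molecules in CCR7 dendritic cells, against 149, 72 and 64 in cDC1 and cDC2. Against cDC1 alone, a contrast added after the values were seen, 1 of the 4 members passed, where 6.25% of 7840 genes were lower. That was Ifitm6, with 2, 3 and 3 molecules in CCR7 dendritic cells, against 33, 12 and 4 in cDC1, and the call was lost without tag 8 and under 4 other alternative settings. Ifitm3 was 447, 433 and 344 CPM in CCR7 dendritic cells and 737, 672 and 623 CPM in cDC1, lower in 3 of 3 tags by less than 2-fold. Ifitm1 had ratios of -0.72, -0.46 and -1.21 and Ifitm2 of -1.41, -1.23 and -0.83, so Ifitm2 missed the rule in tag 10 alone and passed without it. The monocyte check markers summed to between 278 and 392 CPM in CCR7 dendritic cells, against 963 to 1082 CPM in cDC1 and 2310 to 2413 CPM in cDC2. The neutrophil check markers summed to between 177 and 330.0 CPM in CCR7 dendritic cells, against 75.6 to 185 CPM in cDC1 and 1246 to 1592 CPM in cDC2. Macrophage check markers summed to between 1351 and 1464 CPM in CCR7 dendritic cells, against 29.3 to 91.7 CPM in cDC1 and 98.6 to 278 CPM in cDC2. Most of that sum in CCR7 dendritic cells was 1 of the 4 genes, Cd63. Its median over tags was 1336 CPM there, the highest of the 17 classes, beside 1406 CPM for the sum. Melanoma genes (Pmel, Mlana, Dct and Tyrp1) summed to between 1817 and 4554 CPM in CCR7 dendritic cells, against 22.6 to 34.0 CPM in cDC1 and 14.9 to 50.8 CPM in cDC2, and the part of these markers in the differences was not tested.

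Plasmacytoid dendritic cells, the main producers of type I interferon, numbered 11 under the gates above, since cells with their markers and Ly6c2 or Chil3 were left out as passing more than 1 lineage. With gates revised after this was seen, 35, 35 and 31 of them were found. Their Ifitm3 was 440.8, 227 and 270.0 CPM, against 1656, 1453 and 1476 CPM in cDC1 and cDC2, a median log2 ratio of -2.45. Ifitm1 and Ifitm2 were also lower, with median ratios of -3.03 and -2.88, where 5.31% of 7360 genes were lower, while Ifitm6 had ratios of -1.99, -0.63 and -1.89 and did not pass. The tag 9 value came from 10 molecules of Ifitm6 in 1 of 35 cells.

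Lymphocytes held little of Ifitm2, Ifitm3 and Ifitm6, while Ifitm1 in some lymphoid classes overlapped the monocyte values. Against all lymphoid cells, monocytes were higher in Ifitm2, with log2 ratios of 2.73, 3.29 and 3.65, in Ifitm3, with 4.33, 4.43 and 4.91, and in Ifitm6, with 5.32, 5.42 and 5.41, where 10.2% of 11643 genes were higher. The median of all genes was -0.61, or -0.18 with TMM factors, under which 54.4% of the genes called were higher, against 34.6% without them. Ifitm1 was 220.2, 135 and 119 CPM in monocytes and 66.0, 83.3 and 41.9 CPM in lymphoid cells, with a ratio of 0.70 in tag 9, so it did not pass. Without tag 9 it did. Melanoma genes summed to between 433 and 1591 CPM in monocytes and between 2671 and 6967 CPM in the largest T cell class, and their part was not tested. Lymphoid Ifitm1 came in a few cells, and in NK cells 4 of 124 cells held all 96 molecules, 1 of them 50. NK cells against T cells gave no member past the rule, where 2.79% of 10671 genes passed in either direction. Their Ifitm1 of 14.2, 310.2 and 220.0 CPM, against 71.2, 73.7 and 32.5 CPM in T cells, was lower in tag 8 and higher in tags 9 and 10, and 1 cell gave 96.2% of it in tag 9 and another all 43 molecules in tag 10. Without tag 8 Ifitm1 passed, and without tag 9 Ifitm6 did, on 4 molecules of Ifitm6 in NK cells over all tags. With the revised gates, which held 514 NK cells in place of 124, no member passed either, where 6.94% of 11253 genes did. Ifitm1 was then 10.6, 60.6 and 55.7 CPM in NK cells, with a median ratio of 0.04 in place of 2.07. The median ratio of Ifitm3 was -1.02 in place of 0.62 and that of Ifitm6 -0.73 in place of 1.21, so both medians changed sign with the gates. In tag 8 neither ratio changed sign, with -0.62 in place of -1.28 for Ifitm3 and 0.63 in place of 1.79 for Ifitm6.

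A list of 12 genes induced by type I interferon (Isg15, Ifit1, Ifit2, Ifit3, Rsad2, Mx1, Oas1a, Oasl1, Usp18, Irf7, Rtp4 and Bst2) was followed through some of the same contrasts. In monocytes against lymphoid cells 12 of 12 were higher, as were Ifitm2, Ifitm3 and Ifitm6, where 10.2% of all genes were. The list median was 2.85 log2 units, beside the -0.61 of all genes. In monocytes against C1q macrophages none passed, with a median of 0.61, while Ifitm6 did. Of all genes 1.13% were higher there and 1.46% lower. In neutrophils against monocytes 4 of 12 were lower (Mx1, Oas1a, Oasl1 and Bst2), where 16.5% of all genes were. The list median was -0.82, close to the -0.73 of all genes. No list gene was higher, unlike Ifitm1, where 4.62% of all genes were. In dendritic cells against monocytes 5 of 12 were lower (Rsad2, Oas1a, Oasl1, Irf7 and Rtp4), where 7.23% of all genes were. The list median was -1.60, beside 0.18 for all genes. In eosinophils against neutrophils 2 of the 11 genes compared were lower and 0 higher, where 6.04% of all genes were lower. The list median was -1.59, beside 0.77 for all genes, and all 4 Ifitm genes were lower there.

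In cDC2 against cDC1 4 of 12 were higher, namely Ifit1, Ifit3, Oas1a and Rtp4, where 4.75% of all genes were. The list median was 0.50, beside -0.05 for all genes. In CCR7 dendritic cells against cDC1 and cDC2 none passed in either direction, with a median of -0.54. All 4 Ifitm genes were lower there, as were 6.95% of all genes. Of 9 receptor and signalling genes, Ifngr1, a chain of the interferon gamma receptor, was lower there at a median log2 ratio of -1.90, and the other 8 did not pass. In CCR7 dendritic cells against cDC1 alone, 2 of the 11 type I genes compared were higher and 0 lower, where 6.25% of all genes were lower. The list median was 0.07, beside 0.03 for all genes.

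To see whether the members went with the interferon response from cell to cell, cells thinned to 1000 molecules were split within a class and tag by their molecules of the 12 type I genes. Ifitm3 was higher in cells with 3 or more such molecules than in cells with 0 in 3 of 3 tags in monocytes, neutrophils, dendritic cells, C1q macrophages and T cells. In monocytes Ifitm3 held 2055, 2699 and 3327 CPM at 3 or more, against 1798, 1648 and 1526 CPM at 0, and tag 8 had the smallest gap, with overlapping intervals. In neutrophils it held 1689, 1483 and 1429 CPM at 3 or more, against 593, 500 and 304 CPM at 0, a median ratio of 2.97. Dendritic cells held 3071, 2238 and 2125 CPM at 3 or more, on 14, 21 and 16 cells, against 1027, 920 and 883 CPM at 0. The median ratio was 1.49 in C1q macrophages and 2.50 in T cells, the T cell value on 3, 4 and 5 molecules at 3 or more. The intervals of both ranges overlapped in tag 8 of C1q macrophages and in every tag of T cells, as the plot by interferon response molecules shows.

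In the classes kept out of that plot, Ifitm3 was also higher at 3 or more in 3 of 3 tags, with median ratios of 1.56 in C1q positive monocytes, 4.91 in CCR7 dendritic cells and 2.16 in cDC2. The CCR7 value rested on as few as 8 cells and 8 molecules in a tag, and the cDC2 value on as few as 5 cells and 16 molecules. Ifitm2 had median ratios of 1.34 in monocytes, 1.17 in C1q macrophages and 1.37 in neutrophils, above 1 in 3 of 3 tags in each. Its ratios were mixed elsewhere, with 1.43, 0.73 and 1.80 in dendritic cells, 1.63, 0.86 and 0.93 in C1q positive monocytes, 4.67, 0.80 and 0.81 in CCR7 dendritic cells and 1.01, 0.63 and 2.57 in cDC2. In T cells the Ifitm2 ratios were 2.61 and 3.34 in tags 8 and 9, while the 24 T cells with 3 or more in tag 10 held 0 molecules of Ifitm2, with an interval up to 154 CPM, against 48.5 CPM at 0. Ifitm1 had no common direction over classes. Its ratios in neutrophils were 0.82, 1.06 and 2.05, in monocytes 2.80, 1.08 and 0.70, and in dendritic cells 0.70, 0.29 and 1.16. Ifitm6 in monocytes had ratios of 0.83, 0.91 and 2.60, so it was higher in tag 10 alone, whereas in neutrophils its ratios were 1.19, 2.49 and 2.22, on as few as 7 molecules in a tag.

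**Figure D4:**
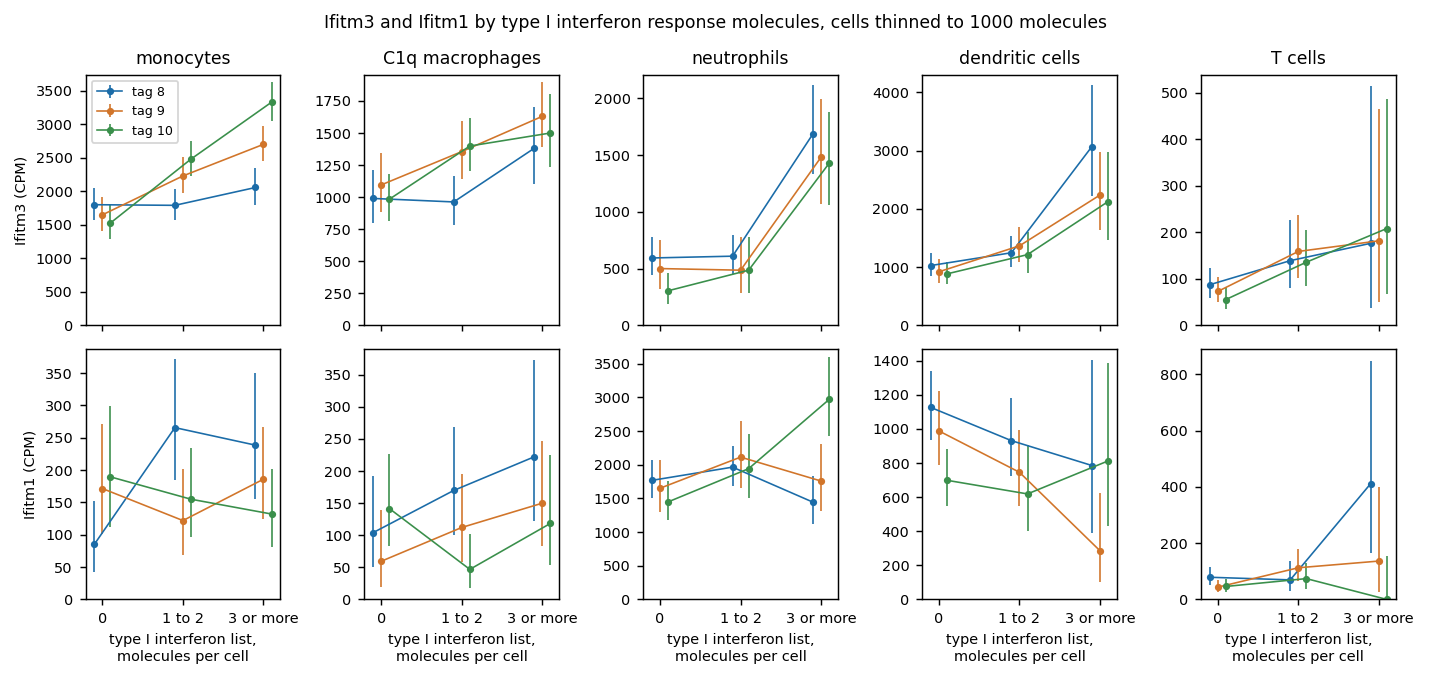
Level of Ifitm3 (upper row) and Ifitm1 (lower row) in CPM, on axes from 0, in cells with 0, 1 to 2 or 3 or more molecules of the 12 type I interferon genes, per tag and class, cells thinned to 1000 molecules, with exact 95% Poisson intervals. Ifitm3 is higher at 3 or more than at 0 in every tag and class shown, while Ifitm1 has no common direction.

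Likeness over the 17 classes was measured as Pearson's r of log2(CPM + 10) over 51 class and tag values, which share 1 capture, the depth of each class and the cells of a tag, among 9629 candidate genes. Ifitm2 and Ifitm3 were most alike among the members (r = 0.93), a pair that also shares sequence, followed by Ifitm2 and Ifitm6 (0.77) and Ifitm3 and Ifitm6 (0.76), with Ifitm1 and Ifitm3 least alike (0.54). The gene most like Ifitm1 was Il1r2, the decoy receptor for interleukin 1 (r = 0.84), followed by Gcnt2, S100a11, Snx20 and Klra17. Most like Ifitm2 was Plbd1 (0.90), followed by Il1b, which encodes the cytokine interleukin 1 beta, Wfdc17, Gm46224 and Atf3. Most like Ifitm3 was Wfdc17 (0.92), followed by Cfp, which encodes the complement factor properdin, the cathepsin gene Ctsz and the interferon-inducible genes Ifi204 and Ifi207. Most like Ifitm6 was I830077J02Rik (0.87), followed by Mefv, which encodes pyrin, Gpr35, Ndel1 and Nfam1. The median r with the 12 type I interferon genes was 0.73 for Ifitm3, 0.65 for Ifitm2, 0.58 for Ifitm6 and 0.29 for Ifitm1, and with the 12 interferon gamma genes it lay between 0.05 and 0.16 for all 4, while the median over all candidates lay between -0.28 and -0.20.

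The other Ifitm genes of the table were rare. Ifitm5, known from bone-forming cells, gave 164 molecules in all kept cells, of which neutrophils held 42 (35.1 CPM). Ifitm10 gave 278 molecules and Ifitm7 22. In neutrophils against monocytes Ifitm5 and Ifitm10 were both higher, where 4.62% of all genes were. Their median log2 ratios were 4.29 and 3.76, on 13 and 12 molecules in monocytes. Smaller classes outside the contrasts were the nonclassical monocytes, with 19, 10 and 17 cells and 1585, 1553 and 1849 CPM of Ifitm3. Basophils or mast cells, 27 in all, held 304, 377 and 306 CPM of Ifitm2, and 0 molecules of Ifitm6, with an interval up to 22.4 CPM.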

How the data were processed

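One single-cell library and its sample tag library were analysed. The authors' count of molecules for each gene in each cell came, per the file headers, from BD's WTA Multiplex Rhapsody Analysis Pipeline (1.9.1) with genome GRCm38 and annotation GENCODE vM19, while the submitters' processing notes name GRCm39. The deposited counts cover 14899 cells and 24510 genes, and each cell has a deposited tag call. The 1448 multiplets (9.72%) and 361 cells with an undetermined tag (2.42%) were left out, and doublets within a tag were not called. A cell was kept with 200 genes or more and no more than 25% of its molecules mitochondrial.

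Gates, contrasts, gene lists and members were chosen with earlier results of these data known. Gates were sums of raw marker molecules (T receptor and Cd3 genes, B, NK, C1q, Ly6c2 and Chil3, Arg1, granulocyte and dendritic genes), and cells passing more than 1 lineage were left out. Revised gates and 3 contrasts (cDC2 against cDC1, CCR7 dendritic cells against cDC1, C1q positive monocytes against monocytes) were added after seeing the data. Molecules were summed per class and tag. Contrasts used genes with at least 30 molecules in both classes together, and a count of 0 was set to 3 molecules. The named genes were the 4 members, the lists, and the 5 genes most like each member among those with at least 200 molecules, no gating gene included. No p-values were computed, since the tags hold 1 unnamed genotype each and cells are not replicates. On simulated counts of monocytes against C1q macrophages the contrast rule was tested with known fold changes. TMM factors came from edgeR 4.0.16 in R 4.3.3, and the rest from scipy 1.17.1, numpy 2.4.6 and pandas 2.3.3 in Python 3.11.15, with figures from matplotlib 3.10.9. The median depths by class lay between 1272 molecules in eosinophils and 11529 in cDC1 among the 17 classes compared. Contrast calls of the interferon gamma list, which holds a gene not reported here, are left out.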

Additional observations from a re-analysis of the deposited data

Results flagged for a closer look

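Cells outside the comparisons, by their tag call, also held Ifitm molecules above the value set for a count of 0 (3 molecules, or 0.756 CPM in undetermined cells and 0.290 CPM in multiplets). The 175 undetermined cells that passed the filters held 10.6 CPM of Ifitm1, 207 CPM of Ifitm2, 317 CPM of Ifitm3 and 2.02 CPM of Ifitm6. The 1271 multiplets held 241 CPM of Ifitm1, 533 CPM of Ifitm2, 1113 CPM of Ifitm3 and 69.7 CPM of Ifitm6, beside 224, 478, 974 and 59.3 CPM in the kept single-tag cells.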

How the results depend on the processing

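Over 11 contrasts, 20 of 44 member ratios passed the rule, and 16 of these did under each of 14 alternatives (fewer or more cells kept, thinning, other gates, TMM factors, other totals, mean CPM per cell, no minimum of molecules, each tag left out), while none was reversed. A call needs 2-fold in all 3 tags, so leaving out a tag can undo it only where the gene falls under 30 molecules. Dropping the minimum of molecules cannot undo a call, and the revised gates left the 1191 monocytes as they were. Passing under these alternatives was thus partly fixed in advance. In neutrophils against monocytes 1 member passed with TMM factors in place of 2. In dendritic cells against monocytes 1 member passed, but 3 with doubled gate thresholds or TMM factors, 2 with the revised gates, and between 1 and 3 with a tag left out. In NK cells against T cells none passed, and between 0 and 1 with a tag left out. In C1q positive monocytes against monocytes 1 passed, but 2 with at most 10% mitochondrial molecules, doubled thresholds or mean CPM per cell, and between 1 and 2 with a tag left out, Ifitm1 being the second. In CCR7 dendritic cells against cDC1 1 passed, Ifitm6, but 0 with thinning, doubled thresholds, C1q below 1 outside macrophages or mean CPM per cell, and between 0 and 2 with a tag left out. Ifitm6 in eosinophils against neutrophils passed in the values given but not under 5 alternatives, with median ratios between -2.45 and -1.99, on 13 molecules in eosinophils, and Ifitm3 there did not with doubled thresholds (-1.93). The causes were not tested. Plasmacytoid dendritic cells against cDC1 and cDC2 could not be fitted with the gates as fixed, on 5, 5 and 1 cells. Few molecules stand behind Ifitm6 in dendritic and lymphoid classes and behind all members in eosinophils.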
